A study of Mus musculus with 6 samples.

Results

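The 48 genes described here encode the machinery that brings new secretory and membrane proteins into the endoplasmic reticulum (ER), folds them, attaches sugars to them and removes those that fail to fold. They were chosen by name as a list of genes with these roles and grouped by step: sensors of ER stress, translocation, chaperones, disulfide isomerases, glycosylation and ER-associated degradation. This list and the further lists below were chosen with earlier results of these data known. The shares of their genes that were called are therefore descriptions. Among probe sets annotated with a gene's symbol alone, the one of highest mean on the 6 arrays stood for the gene. This gave 46 genes of the 48, out of 18193 genes measured. Srp54a and Sec61g have no such probe set and were not analysed here.

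Transcripts were measured on 3 arrays of uterine horns after P4, the standard abbreviation of progesterone, and on 3 arrays after oil, a usual carrier of steroid hormones. All 6 samples came from ovariectomized female mice, 8 weeks old and of mixed background, with the genotype GATA2 f/f. By convention f/f denotes a floxed allele on both chromosomes, and the labels name no recombinase, so both groups carry the same genotype. Without ovaries a mouse makes little progesterone of its own, and the labels give neither dose nor time after treatment. They also do not state whether each array was a different animal. The p-values therefore reflect only how far these samples scatter, and that scatter may be technical.

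As background, proteins bound for secretion are recognised by the signal recognition particle while still on the ribosome and pass through the Sec61 channel into the ER lumen. There the chaperone BiP and its partners hold them, disulfide isomerases join their cysteines, and oligosaccharyltransferase adds N-linked sugars that the lectin chaperones calnexin and calreticulin read. When unfolded protein builds up, the sensors IRE1, PERK and ATF6 start the unfolded protein response. IRE1 splices Xbp1 RNA, PERK slows translation and raises ATF4, and cleaved ATF6 enters the nucleus. The uterus is a secretory tissue: its glands feed the early embryo, and its stroma lays down matrix.

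Array medians were 117 to 121 intensity units after P4 and 119 to 123 after oil. Log2 values of any pair of arrays correlated at 0.967 to 0.994. Markers of stroma, smooth muscle and epithelium, the tissues of a uterine horn, were bright: Dcn averaged 13748 ± 1487 after P4 and 15594 ± 1254 after oil, Acta2 15852 ± 908 and 15959 ± 286, and Krt18 2680 ± 742 and 4028 ± 184 (SD, n = 3 arrays each). Of 76 measured markers of 12 cell types, 1 rose after P4 and 3 fell, where 6.08% of all genes rose and 6.94% fell. Cldn3, an epithelial tight junction protein, rose by 1.21 ± 0.12 on the log2 scale. Of the 8 measured epithelial markers, 3 had differences above 0 and 5 below it. Krt18 (-0.62, limma adjusted p 0.0673) and Krt19 (-0.34, adjusted p 0.0721) had all P4 arrays below all Oil arrays but did not pass. Lum of the stroma (-0.90 ± 0.18), Tek of endothelium (-0.38 ± 0.10) and Prdm1, a plasma cell transcription factor (-0.50 ± 0.11), fell. The Lum call was lost without Oil replicate 2, the Prdm1 call in 4 and the Tek call in 5 of the 6 fits without a single array. The brightest markers of the other cell types had log2 differences that did not pass: Cdh5 -0.19, Sdc1 0.29, Cxcl15 -0.15, Cd14 0.58, Kit 0.16, Ptprc 0.07, Fabp4 -1.62 and Hba-a1 -0.14. With the replicate number as a block, 5 of the 76 markers rose and 9 fell, where 9.29% of all genes rose and 11.6% fell. The granulocyte gene S100a8 read 67.6, 3408 and 4860 on the P4 arrays, against 70.3, 64.3 and 2950 on the Oil arrays, and S100a9 was high on the same arrays. P4 replicates 2 and 3 and Oil replicate 3 thus stood apart, and the log2 difference of S100a8, 2.03, ranged from 0.97 to 3.90 when 1 array was left out, and that of Cd14 from 0.16 to 0.88. No marker was at 0 on any array, and the file holds no detection calls.

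Many of the ER genes were higher after P4, and none was called lower. At an adjusted p under 0.05 in limma, 20 of the 46 rose, or 43.5%, while 6.08% of all genes rose and 6.94% fell. The 3 P4 arrays lay above the 3 Oil arrays for 30 of the 46 genes, including all 20 called, against 14.3% of all genes. They lay below for 1, against 17.5% of all genes. The log2 difference was above 0 for 43 of the 46 genes, against 47.7% of all genes. The median log2 difference was 0.30 over the 46 genes and -0.01 over all genes. Folds of the called genes ran from 1.23 to 2.50, so most changes were small, and 4 genes reached 2-fold.

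The steps differed in their counts. Chaperones had 10 of 11 genes called and translocation 6 of 13, followed by glycosylation with 2 of 6, the sensors with 1 of 4, ER-associated degradation with 1 of 7 and the disulfide isomerases with 0 of 5. The median log2 difference was 0.86 for chaperones, 0.30 for disulfide isomerases, 0.29 for translocation, 0.19 for ER-associated degradation, 0.16 for the sensors and 0.14 for glycosylation. Whether the steps differ from one another was not tested.

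**Figure D1:**
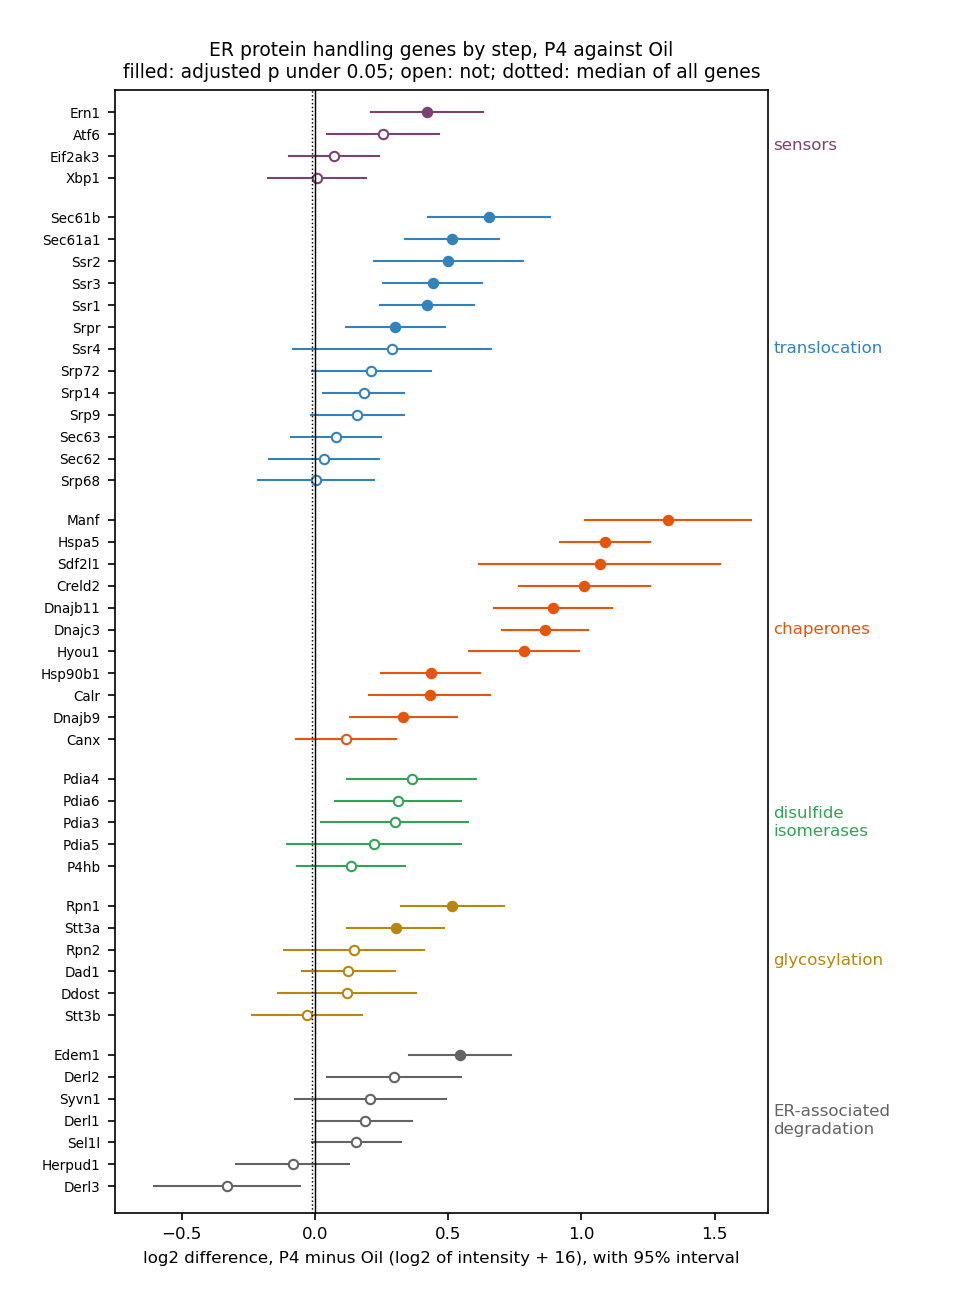
Log2 difference of P4 minus Oil (x axis, log2 of intensity + 16) for each of the 46 measured genes, by step, with its 95% interval from limma. Filled points passed an adjusted p under 0.05; the 10 filled chaperones reach up to 1.32 for Manf, while the 5 disulfide isomerases are all open, at 0.13 to 0.36.

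The count moved with single arrays. Leaving out Oil replicate 1 gave 11 genes (3.07% of all genes rose in that fit), Oil replicate 2 gave 10 (2.67%) and Oil replicate 3 gave 19 (4.78%). Leaving out P4 replicate 1 gave 19 (5.91%), and P4 replicates 2 and 3 gave 15 each (3.52% and 4.56%). Without both arrays numbered 2 the count was 4 (0.544%). Whichever single array was left out, 10 of the 46 genes were called, against 2.48% of all genes. These 10 were among the 20 called with every array. Over all genes, 452 were called higher in every such fit, against 1106 with every array. With the replicate number as a block, 23 of the 46 rose and 1 fell, where 9.29% of all genes rose and 11.6% fell. In bulk tissue, fewer cells of a type and less RNA per cell cannot be told apart. Endothelial markers had a summed intensity of 4568 to 4698 on the P4 arrays and 4845 to 5627 on the Oil arrays, with 0 of 6 members called higher and 1 lower. Plasma cells carry a large ER, and the plasma cell and B cell list of 9 measured genes summed to 2038 to 2657 after P4 and 2201 to 2338 after oil, which overlap. Of these 9 genes, 7 had a difference above 0 and 2 below it, with 0 called higher and 1 lower. Tnfrsf17 averaged 43.8 ± 2.42 after P4 and 42.04 ± 3.13 after oil. It lay below the median intensity of the arrays, so its values rest on a dim signal. Mzb1 averaged 236 ± 76.6 and 171 ± 31.2, and Pou2af1, also dim, 84.4 ± 41.6 and 55.2 ± 29.3 (SD, n = 3 arrays each). Tnfrsf17, Mzb1 and Pou2af1 were picked outside the rule for named genes given below. The part of any cell type in the differences below was not tested.

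The shift of the 46 genes was present on each P4 array. The median log2 deviation of the 46 genes from their Oil means was 0.23, 0.31 and 0.36 on P4 replicates 1, 2 and 3, and -0.01, -0.06 and 0.07 on Oil replicates 1, 2 and 3. For all genes the same median lay between -0.04 and 0.02 on every array. Within the Oil group, replicate 2 was the lowest array for 28 of the 46 genes and replicate 3 the highest for 26. For chaperones the medians were 0.86, 0.87 and 0.80 on the P4 arrays and 0.02, -0.13 and 0.14 on the Oil arrays, the widest gap of the 6 steps. For the disulfide isomerases P4 replicate 1, at 0.12, lay below Oil replicate 3, at 0.19, so the groups overlapped. For glycosylation, too, P4 replicate 1 (0.03) lay below Oil replicate 3 (0.07).

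**Figure D2:**
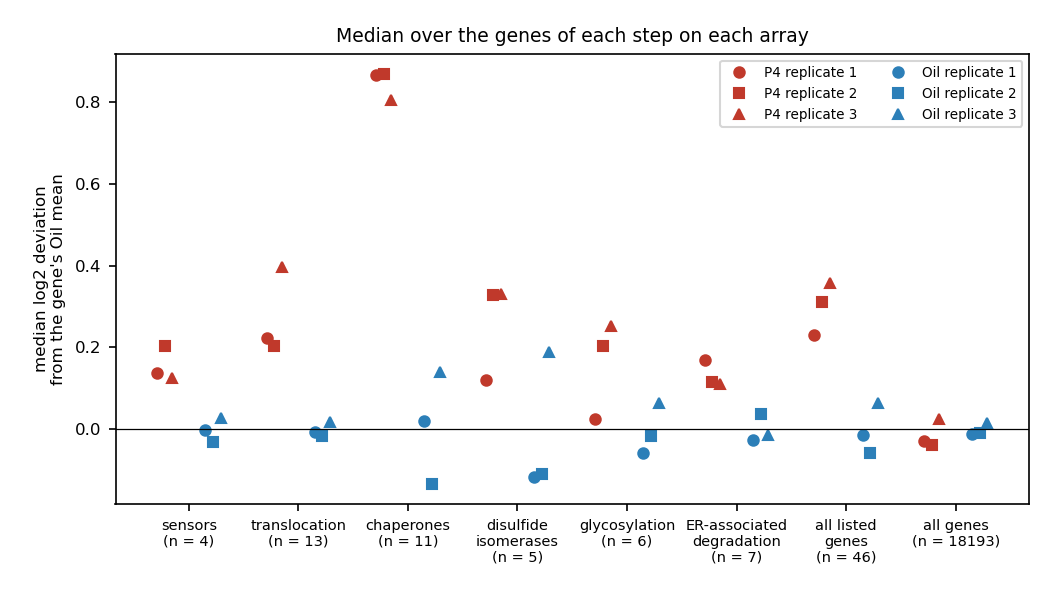
Median log2 deviation from each gene's Oil mean (y axis) on each array, for the genes of each step, all 46 listed genes and all 18193 genes. Red symbols are P4 arrays and blue symbols Oil arrays; chaperones sit at 0.80 to 0.87 on the P4 arrays, and all genes within -0.04 to 0.02.

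Of the sensors, Ern1 transcript rose and those of Atf6, Eif2ak3 and Xbp1 did not pass the test. Ern1, which encodes the kinase and nuclease IRE1, read 1188, 971 and 1062 on the P4 arrays, against 790, 774 and 824 on the Oil arrays. Every P4 value was above every Oil value, a log2 difference of 0.42 ± 0.09 (adjusted p 0.0223). The call was lost without P4 replicate 3, Oil replicate 1 or Oil replicate 2 (adjusted p up to 0.0945), and when the Ern1 probe sets were averaged (0.337). Atf6, whose protein is the membrane-bound precursor of a transcription factor, read 349, 409 and 347 on the P4 arrays, against 312, 300 and 304 on the Oil arrays. These groups also did not overlap, but the difference of 0.26 ± 0.09 missed the threshold (adjusted p 0.113).

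Eif2ak3, which encodes the kinase PERK, read 396, 384 and 391 on the P4 arrays, against 372, 368 and 373 on the Oil arrays. The arrays of each group were close together, and the difference was 0.07 ± 0.07, with a 95% interval of -0.10 to 0.24. Xbp1, the transcription factor made from the RNA that IRE1 splices, read 3847, 4457 and 4027 on the P4 arrays, against 4069, 3861 and 4323 on the Oil arrays. The groups were interleaved, and the interval of the difference, -0.18 to 0.19, allows only small changes in either direction for this probe set. Other probe sets of Xbp1 had differences of -0.13, -0.01 and 0.18, and none was called. A level of total transcript does not show how much of it is spliced.

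Translocation genes rose at the channel and its neighbours. Both listed subunits of the Sec61 channel, Sec61a1 and Sec61b, rose, as did 3 of the 4 subunits of the TRAP complex, which sits beside the channel and helps some signal sequences to enter. The membrane receptor of the signal recognition particle, Srpr, rose as well. Of the particle itself, none of the 4 listed subunits with a probe set was called, while Srp19, from a further list, rose (0.41 ± 0.07, adjusted p 0.00808). No call was made for Sec62 or Sec63, which serve proteins that enter after translation.

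Sec61b, the beta subunit of the channel, read 3904, 3777 and 4188 on the P4 arrays, against 2458, 2238 and 2860 on the Oil arrays. Sec61a1, which forms the pore, read 2624, 2942 and 2569 on the P4 arrays, against 1915, 1842 and 1914 on the Oil arrays. The groups were well apart for both genes, with log2 differences of 0.65 ± 0.10 for Sec61b (adjusted p 0.00599) and 0.51 ± 0.08 for Sec61a1 (adjusted p 0.00541). Both calls held without any single array. Sec61a2, a second form of the pore subunit from a further list, averaged 321 ± 17.3 after P4 and 369 ± 8.82 after oil (SD, n = 3 arrays each). All its P4 arrays lay below its Oil arrays, but its difference of -0.20 ± 0.08 missed the threshold (adjusted p 0.165).

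Ssr1, the alpha subunit of TRAP, read 2212, 2529 and 2305 on the P4 arrays, against 1787, 1683 and 1774 on the Oil arrays. Ssr2 read 843, 1080 and 985 on the P4 arrays, against 649, 620 and 771 on the Oil arrays. Ssr3 read 2691, 2856 and 2769 on the P4 arrays, against 2028, 1877 and 2219 on the Oil arrays. Each of these subunits was higher on all 3 P4 arrays, by 0.42 ± 0.08 for Ssr1, 0.50 ± 0.12 for Ssr2 and 0.44 ± 0.08 for Ssr3. The fourth subunit, Ssr4, read 1288, 1619 and 1979 on the P4 arrays, against 1144, 1338 and 1472 on the Oil arrays. Its groups overlapped, and its difference of 0.29 ± 0.16 passed only with the replicate number as a block (adjusted p 0.0344, against 0.315 without the block).

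Srpr read 1171, 1087 and 1238 on the P4 arrays, against 987, 931 and 909 on the Oil arrays. This was the smallest change called among the 46 genes (0.30 ± 0.08, adjusted p 0.0463), and the call was lost without any 1 of the 6 arrays (adjusted p up to 0.151), with the mean of its probe sets (0.372) and without the intensity trend in the variance (0.0598). Ssr1 missed the threshold without Oil replicate 2 (adjusted p 0.0594), Ssr3 without Oil replicate 1 or 2 (up to 0.0527) and Ssr2 without P4 replicate 2 or 3 or Oil replicate 1 or 2 (up to 0.128).

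For the listed subunits of the signal recognition particle the log2 differences were 0.16 ± 0.08 for Srp9, 0.18 ± 0.07 for Srp14, 0.00 ± 0.09 for Srp68 and 0.21 ± 0.10 for Srp72. Srp68, one of its RNA-binding proteins, read 1011, 972 and 894 on the P4 arrays, against 993, 1023 and 857 on the Oil arrays. These values were interleaved, and the interval ran from -0.21 to 0.22. Sec62 had a difference of 0.03 ± 0.09 and Sec63 of 0.08 ± 0.07, both with upper limits of 0.24 to 0.25. These limits hold for the brightest probe set of each gene. Dimmer probe sets of Sec63 had larger differences of 0.36, 0.26, 0.20 and 0.12, and those of Sec62 ran from -0.46 to 0.27. None of them was called. Within arrays, the log2 ratio of Sec61b to Sec62 was 0.62 higher after P4, with no overlap of the groups. This and 4 other pairs of genes were picked with their values known, so their ratios are given as descriptions. Exact permutation tests of the ratios gave p 0.1 or 0.2, and 0.1 is the lowest that 3 against 3 arrays allow.

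The chaperones held the largest changes. Hspa5, Hyou1, Dnajb9, Dnajb11 and Dnajc3, which encode BiP, its nucleotide exchange factor and its J-domain partners, all rose. Manf, Creld2 and Sdf2l1, smaller proteins known from the stress response of the ER, all rose too, as did Hsp90b1, the HSP90 of the ER, and Calr, the soluble lectin chaperone calreticulin. Canx, the membrane-anchored lectin chaperone calnexin, was the 1 chaperone of 11 that did not pass. Dimmer probe sets of Canx had larger differences than the one used, 0.29 and 0.30. They were not called either when all probe sets were fitted in limma (adjusted p 0.223 and 0.107).

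Hspa5 read 8231, 8242 and 8056 on the P4 arrays, against 4115, 3516 and 3894 on the Oil arrays. The groups were far apart relative to the spread within each, with a log2 difference of 1.09 ± 0.07 (2.13-fold, adjusted p 0.000516). Hyou1 read 1003, 913 and 928 on the P4 arrays, against 557, 495 and 582 on the Oil arrays. Its protein frees BiP of ADP, and it rose by 0.78 ± 0.09 (adjusted p 0.00212).

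Dnajb11, also called ERdj3, read 1204, 1204 and 1274 on the P4 arrays, against 663, 579 and 725 on the Oil arrays. Dnajc3, also called p58IPK, read 2533, 2441 and 2336 on the P4 arrays, against 1371, 1275 and 1352 on the Oil arrays. Dnajb9, also called ERdj4, read 1412, 1486 and 1251 on the P4 arrays, against 1077, 1146 and 1056 on the Oil arrays. These J-domain proteins deliver substrates to BiP and stimulate its ATPase, and all were higher on every P4 array. The first rose by 0.89 ± 0.10 (adjusted p 0.00169), Dnajc3 by 0.86 ± 0.07 (adjusted p 0.000672) and Dnajb9 by 0.33 ± 0.09 (adjusted p 0.0434). The Dnajb9 call held in 1 of the 6 fits without a single array (adjusted p up to 0.142) and missed the threshold after quantile normalization (0.0565), with median centring (0.0551) and without the intensity trend (0.0568).

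Manf, a secreted protein that also binds BiP, read 1983, 2505 and 1883 on the P4 arrays, against 847, 723 and 941 on the Oil arrays. Creld2 read 1018, 1061 and 928 on the P4 arrays, against 520, 424 and 528 on the Oil arrays. Sdf2l1, which works with Dnajb11, read 373, 555 and 455 on the P4 arrays, against 193, 170 and 277 on the Oil arrays. Together with Hspa5 these were the 4 genes that reached 2-fold: Manf rose by 1.32 ± 0.13 (2.50-fold, adjusted p 0.00141), Sdf2l1 by 1.07 ± 0.20 (2.10-fold, adjusted p 0.0118) and Creld2 by 1.01 ± 0.11 (2.02-fold, adjusted p 0.00158). Sdf2l1 was the dimmest and most variable of them, and its call was lost without Oil replicate 1 or 2 (adjusted p up to 0.0532).

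Hsp90b1, also called GRP94, read 5939, 5895 and 5728 on the P4 arrays, against 4192, 4022 and 4814 on the Oil arrays. Calr read 3896, 4154 and 4274 on the P4 arrays, against 2969, 2722 and 3482 on the Oil arrays. Canx read 3162, 3398 and 3173 on the P4 arrays, against 2855, 2836 and 3298 on the Oil arrays. Hsp90b1 and Calr had no overlap and rose by 0.43 ± 0.08 (adjusted p 0.012) and 0.43 ± 0.10 (adjusted p 0.0269), while Oil replicate 3 of Canx lay within the P4 values and its difference was 0.12 ± 0.08 (95% interval -0.07 to 0.30). Hsp90b1 missed the threshold without Oil replicate 1 or 2 (adjusted p up to 0.058), and Calr without P4 replicate 2 or 3 or Oil replicate 1 or 2 (up to 0.0997). Within arrays, the log2 ratio of Calr to Canx was 0.31 higher after P4 and that of Hspa5 to Hsp90b1 0.66 higher. Neither ratio overlapped between the groups. Without both arrays numbered 2, the calls that remained among the 46 genes were those of Hspa5 (adjusted p 0.0379), Manf (0.0386), Dnajc3 (0.0476) and Creld2 (0.0494).

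**Figure D3:**
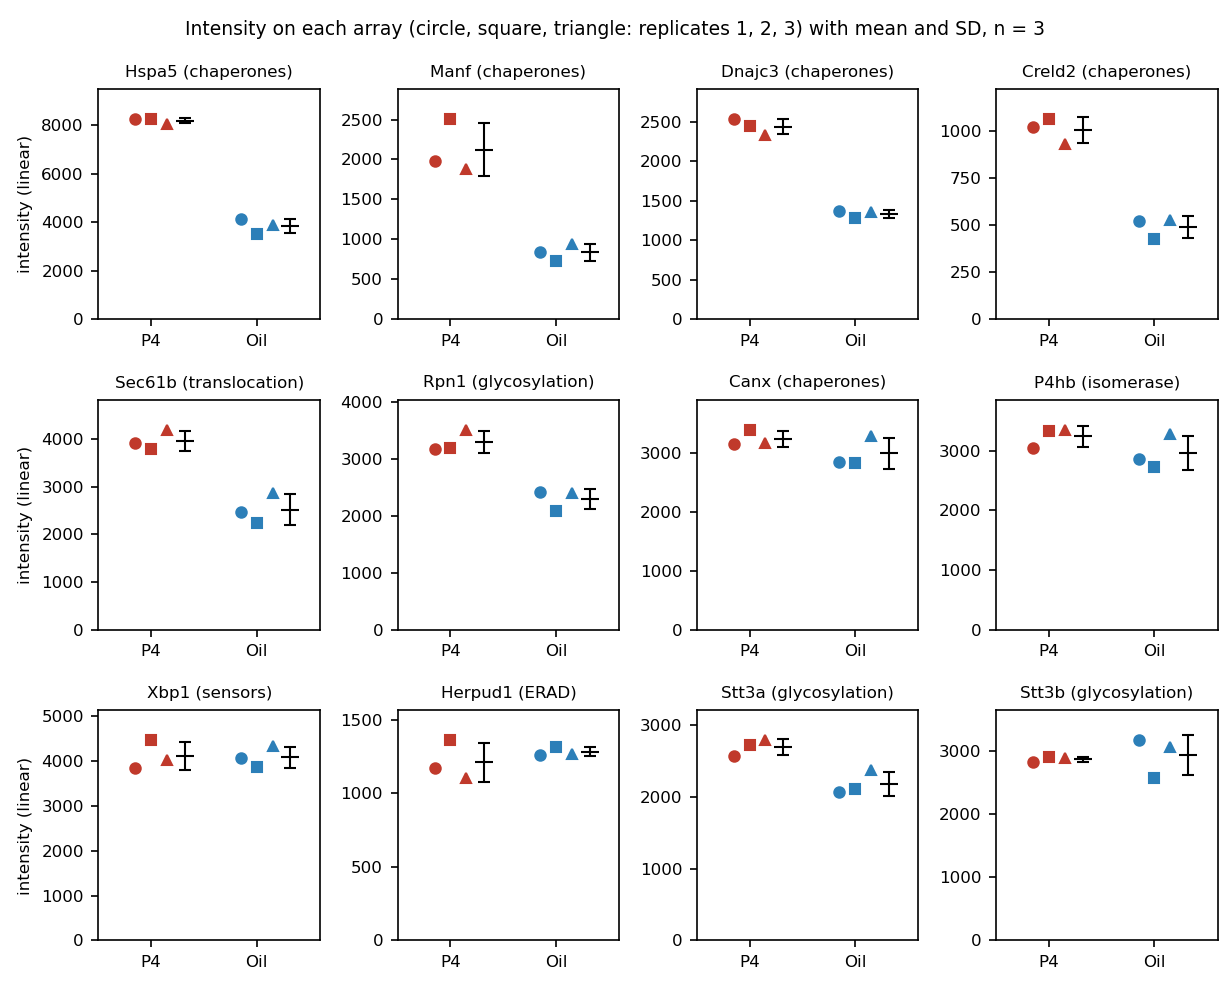
Linear intensity (y axis, from 0) on each array of 12 listed genes, with P4 arrays left of Oil arrays; symbols mark the replicate number and the bar the mean ± SD of 3 arrays. Hspa5 reads 8056 or more on the P4 arrays and 4115 or less on the Oil arrays, while the groups of Xbp1, Herpud1, Stt3b, Canx and P4hb overlap.

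The ER stress response element, ERSE, is the sequence through which ATF6 and spliced XBP1 are known to act on chaperone promoters. It was searched in RefSeq promoters of build GRCm38.p6, each 300 bases long from 250 before to 50 after the start of the gene, on both strands, as CCAAT, any 9 bases and then CCACG. Of the 48 genes, 41 had an entry there, and Atf6, Derl1, Hyou1, Manf, Sec61a1, Srp68 and Ssr2 were not searched. The element was present in 9 of the 41, against 0.137% of the 27025 genes with an entry. Since only 37 genes in all held it, the listed genes are 9 of those 37. The element is known from chaperone promoters and the genes were listed by role. A high share therefore comes with the choice of both, and it was not tested. The matches below are shown because the same element stands in promoters of genes that rose strongly and of genes that did not pass. Capitals mark the element, and the gene's own strand is printed 5′ to 3′, so that a match on the other strand begins with CGTGG.
Hspa5: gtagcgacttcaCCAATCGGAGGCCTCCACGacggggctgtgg
Dnajc3: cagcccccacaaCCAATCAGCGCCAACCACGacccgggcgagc
Creld2: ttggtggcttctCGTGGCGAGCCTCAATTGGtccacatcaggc
Canx: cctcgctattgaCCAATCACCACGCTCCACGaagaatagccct
Syvn1: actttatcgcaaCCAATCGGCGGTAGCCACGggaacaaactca
Derl3: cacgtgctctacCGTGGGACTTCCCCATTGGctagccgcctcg

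The printed stretch of Hspa5 is chr2:34772013-34772055 on the plus strand, that of Dnajc3 chr14:118937815-118937857 on the plus strand and that of Creld2 chr15:88819508-88819550 on the plus strand. The stretch of Canx is chr11:50325788-50325830 on the minus strand, that of Syvn1 chr19:6046520-6046562 on the plus strand and that of Derl3 chr10:75893230-75893272 on the plus strand. All lie upstream of the start. The other genes with the element were Calr, Hsp90b1, which held it at a pair of places, and Pdia6. By call, it was found in 5 of the 16 searched genes that rose and in 4 of the 23 measured genes that did not pass. A related element, ERSE-II, which is ATTGG, any base and then CCACG, was found in Dnajb11 and Herpud1, against 0.0444% of all genes with an entry. The limit given for the share of ERSE holds for this one too. Both elements contain CCACG, which alone occurred in 30 of the 41 genes and in 35.5% of all genes with an entry.

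The match in Herpud1, with ERSE-II in capitals, lies at chr8:94386365-94386399 on the plus strand. It is shown because Herpud1 is a known target of the unfolded protein response whose transcript was not called.
Herpud1: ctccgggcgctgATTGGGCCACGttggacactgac

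No listed promoter held GNACA, any 3 bases and then TGTNC, a form of the progesterone response element found in 0.537% of genes with an entry, or TGACGTGG, an XBP1 site found in 0.714%. The ATF4 site TGATGNAA was found in Herpud1 alone of the 41 genes (4.51% of all genes with an entry), and the GATA site AGATAAG in Ssr1 alone (3.5%). A match describes letters in a window of the promoter and shows no binding.

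**Figure D4:**
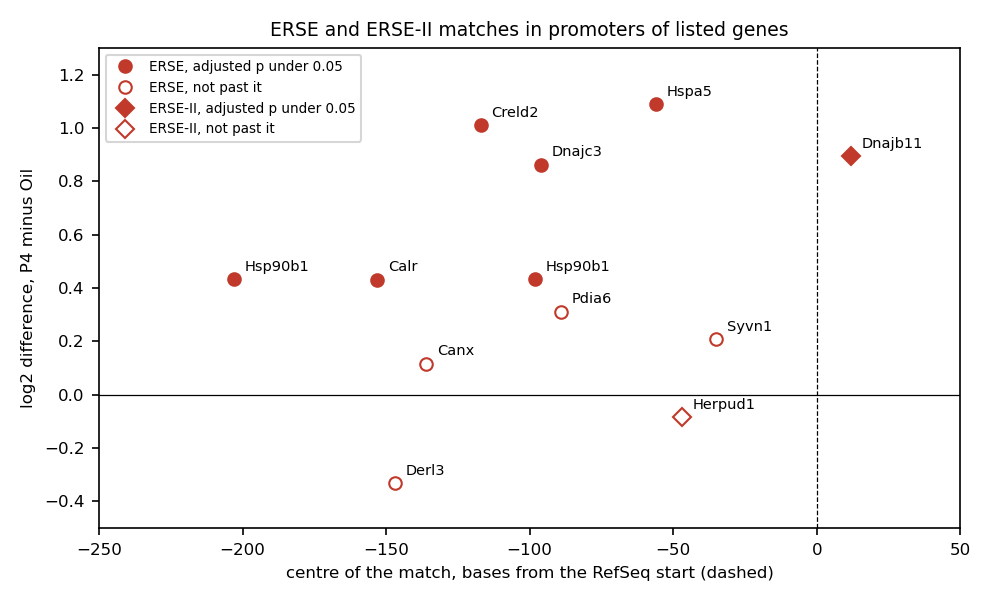
Centre of each ERSE (circles) and ERSE-II (diamonds) match in bases from the RefSeq start (x axis) against the log2 difference of P4 minus Oil (y axis). Filled symbols passed an adjusted p under 0.05; genes with the element run from -0.33 (Derl3) to 1.09 (Hspa5) on the y axis.

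The disulfide isomerases had differences above 0 for 5 of 5 genes, but none passed the test, although 3 did at an unadjusted p under 0.05 (11.9% of all genes were higher and 14.7% lower at that level). P4hb, also called PDI, read 3036, 3334 and 3350 on the P4 arrays, against 2861, 2731 and 3275 on the Oil arrays. The values overlapped, and the difference was 0.13 ± 0.09, the smallest of the step. Pdia4, or ERp72, read 829, 954 and 891 on the P4 arrays, against 634, 653 and 787 on the Oil arrays. Its difference, 0.36 ± 0.10, was the largest of the step, and its groups did not overlap (adjusted p 0.0596). Pdia3, or ERp57, which works with the lectin chaperones, had 0.30 ± 0.12, Pdia6 had 0.31 ± 0.10 and Pdia5 had 0.22 ± 0.14. With the replicate number as a block, Pdia3 (adjusted p 0.0172) and Pdia4 (adjusted p 0.0252) passed as higher.

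In the glycosylation step, 2 of 6 subunits of oligosaccharyltransferase rose. Rpn1, or ribophorin I, which presents some substrates to the enzyme, read 3170, 3186 and 3513 on the P4 arrays, against 2415, 2092 and 2394 on the Oil arrays. Stt3a, the catalytic subunit of the form bound to the Sec61 channel, read 2572, 2727 and 2787 on the P4 arrays, against 2063, 2116 and 2376 on the Oil arrays. Stt3b, the catalytic subunit of the form that acts on sites the first one skips, read 2818, 2896 and 2884 on the P4 arrays, against 3166, 2576 and 3067 on the Oil arrays. The P4 values of Rpn1 and Stt3a lay above all their Oil values, whereas those of Stt3b fell between its Oil values.

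Rpn1 rose by 0.51 ± 0.08 (adjusted p 0.00775) and Stt3a by 0.30 ± 0.08 (adjusted p 0.043), while the difference for Stt3b was -0.03 ± 0.09, with an interval of -0.23 to 0.18. Within arrays, the log2 ratio of Stt3a to Stt3b was 0.33 higher after P4, with no overlap of the groups, while that of Rpn1 to Rpn2 differed by 0.37 and overlapped between the groups. These values hold for the brightest probe set of each gene. A dimmer probe set of Stt3b had a difference of 0.26 and was not called (limma adjusted p 0.349), and those of Stt3a ran from 0.14 to 0.60. Rpn2, Ddost and Dad1, other subunits of the complex, had differences of 0.15 ± 0.11, 0.12 ± 0.11 and 0.13 ± 0.08. The Stt3a call was lost without P4 replicate 2 or 3 or Oil replicate 1 or 2 (adjusted p up to 0.159), after quantile normalization (0.053), without the intensity trend (0.0655), and once cross-hybridising probe sets had been dropped (0.0665).

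In ER-associated degradation, 1 of 7 genes rose. Edem1, a lectin that marks misfolded glycoproteins for removal, read 794, 873 and 836 on the P4 arrays, against 557, 538 and 608 on the Oil arrays. The groups were well apart (0.54 ± 0.08, adjusted p 0.00611), but the call was lost with the mean of its probe sets (adjusted p 0.0829). The 6 genes of the membrane ligase and its channel did not pass: the ligase Syvn1 (Hrd1) had a difference of 0.21 ± 0.12, its partner Sel1l 0.16 ± 0.07, and the channel proteins Derl1 and Derl2 0.19 ± 0.08 and 0.30 ± 0.11.

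Herpud1, an organiser of this ligase complex, read 1174, 1359 and 1102 on the P4 arrays, against 1258, 1315 and 1269 on the Oil arrays. The P4 values spanned the Oil values, and the difference was -0.08 ± 0.09. Derl3, a derlin that the stress response is known to induce, read 122, 130 and 128 on the P4 arrays, against 143, 195 and 155 on the Oil arrays. It was the 1 gene of the 46 with all P4 arrays below all Oil arrays, at -0.33 ± 0.12 (adjusted p 0.113), and it was near the median intensity of the arrays, so this rests on a dim signal. With the replicate number as a block it was called lower (adjusted p 0.0476).

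Further genes of the same pathways, 106 measured in 6 lists, were called higher for 29 (27.4%) and lower for 1. Of all genes, 6.08% were called higher and 6.94% lower, which also stands beside the count of each list below. Without Oil replicate 1 the number higher was 18, where 3.07% of all genes rose. Without Oil replicate 2 it was 14, where 2.67% rose. With the replicate number as a block it was 42, where 9.29% of all genes rose. These included 10 genes of glycan assembly and trimming and 9 of ER exit and return, against 6 and 5 without the block. Among other genes of the unfolded protein response, 4 of 14 rose and 1 fell. Creb3l1, or OASIS, an ER-bound transcription factor of secretory cells, averaged 399 ± 45.2 after P4 and 170 ± 27.7 after oil (SD, n = 3 arrays each), a rise of 1.16 ± 0.13. Atf4, the transcription factor downstream of PERK and of amino acid shortage, averaged 2025 ± 54 after P4 and 1172 ± 27.1 after oil (0.78 ± 0.07, adjusted p 0.000761). Atf6b, a relative of Atf6, rose by 0.57 ± 0.12, a call lost without P4 replicate 3 or Oil replicate 1 or 2 (adjusted p up to 0.0642). Creb3l2, a relative of Creb3l1, fell by 0.34 on the log2 scale (adjusted p 0.0399), which held in 1 of the 6 fits without a single array (up to 0.148) and not with median centring (0.0648), scaling to the hybridisation controls (0.216) or the mean of its probe sets (0.074). The other gene of this list that rose was Ppp1r15b (0.42 ± 0.08, adjusted p 0.0107). The stress genes Ddit3 (CHOP), Trib3 and Bbc3 had differences of -0.23 ± 0.15, -0.10 ± 0.18 and -0.21 ± 0.09. Atf3 and Ppp1r15a had differences of 0.39 ± 0.23 and 0.09 ± 0.10. Apart from Ppp1r15b none of these passed, and all were named after their values were seen.

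Among other translocation and signal peptidase genes 5 of 13 rose, led by Hspa13 (0.55 ± 0.10), a microsomal HSP70, Spcs3 (0.42 ± 0.08), a subunit of signal peptidase, and Srp19 (0.41 ± 0.07), the assembly subunit of the signal recognition particle. Of 20 other folding genes 5 rose: Fkbp11, a prolyl isomerase of secretory cells, by 1.27 ± 0.21, Serp1, which stabilises membrane proteins at the translocon, by 0.75 ± 0.07, and Txndc11, a thioredoxin-like protein, by 0.52 ± 0.10. The others were Erp44 (0.34 ± 0.08) and Dnajc10 (0.43 ± 0.11), which handle disulfide bonds and were named after their values were seen. Once cross-hybridising probe sets had been dropped, the difference for Fkbp11 was 0.17 and was not called (adjusted p 0.326). Hspa13 missed the threshold without Oil replicate 2 (adjusted p 0.0524), and Spcs3 and Txndc11 without Oil replicate 1 or 2 (up to 0.0688), Txndc11 also with the mean of its probe sets (0.0658).

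Of 24 other genes of glycan assembly and trimming 6 rose, with the largest changes in Gmppb (0.88 ± 0.08), which makes GDP-mannose, Alg3 (0.81 ± 0.10), a mannosyltransferase, and Ostc (0.63 ± 0.11), a subunit of the Stt3a form of oligosaccharyltransferase. Ostc missed the threshold without Oil replicate 2 (adjusted p 0.0536). Magt1, a subunit of the Stt3b form, rose as well (0.35 ± 0.07, adjusted p 0.0177). Tusc3, also of that form, did not pass (-0.08 ± 0.08). Magt1 and Tusc3 were named after their values were seen. Of 17 other genes of ER-associated degradation 4 rose: Selenos, a selenoprotein of the retrotranslocation complex, averaged 2028 ± 7.95 after P4 and 1150 ± 33 after oil (0.81 ± 0.07, adjusted p 0.000666), and the ubiquitin-conjugating enzymes Ube2g2 (0.55 ± 0.07), Ube2j2 (0.34 ± 0.08) and Ube2j1 (0.32 ± 0.08) rose as well. The Ube2j2 call was lost without any 1 array (up to 0.131) and with the mean of its probe sets (0.294). Ube2j1 was picked with its value known.

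Of 18 genes for exit from the ER and return to it 5 rose. Sec23b, an inner coat subunit of the COPII vesicles that leave the ER, averaged 4942 ± 806 after P4 and 2273 ± 493 after oil (1.12 ± 0.17, adjusted p 0.00595). Sec13 of the outer coat rose by 0.67 ± 0.07 and Sec24a, a cargo-binding coat subunit, by 0.61 ± 0.09. Sec23b was thus past 2-fold, while its paralogue Sec23a, named after its value was seen, had a difference of 0.03 ± 0.12 (adjusted p 0.932).

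**Figure D5:**
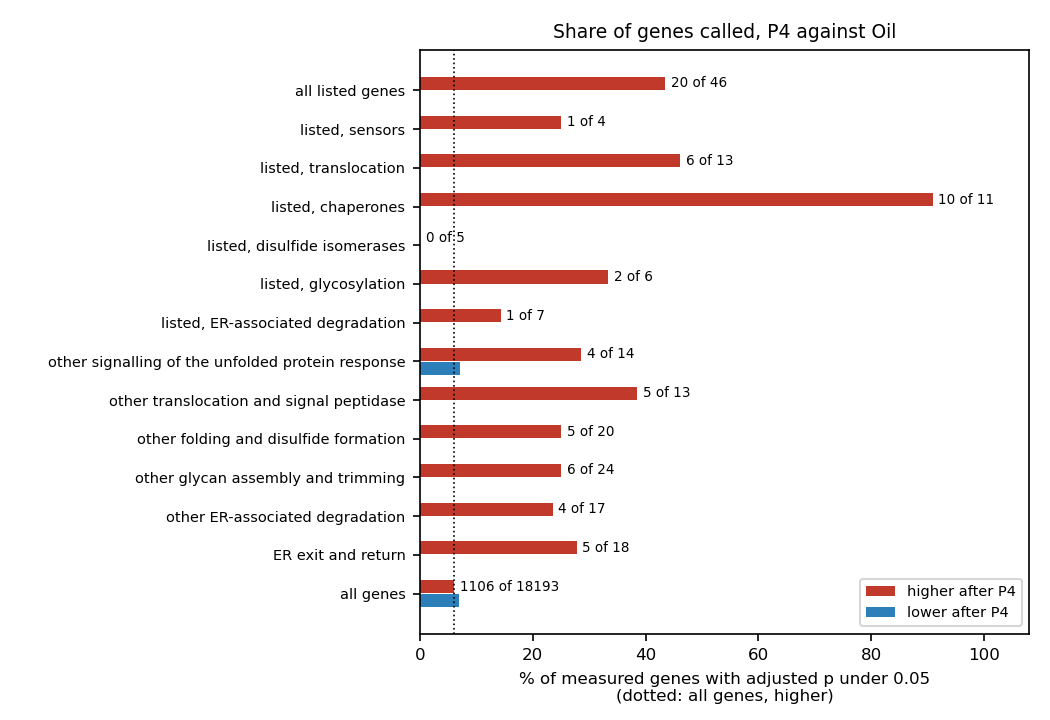
Share of measured genes (x axis, %) with a limma adjusted p under 0.05, higher (red) or lower (blue) after P4, for the 46 listed genes by step, 6 further lists of the same pathways and all genes. Chaperones reach 10 of 11, the disulfide isomerases 0 of 5, and the dotted line marks the 6.08% of all genes that were higher.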

How the data were processed

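The deposited table holds 1 intensity per probe set and array, on a linear scale, for 45101 probe sets. Probe summarisation and scaling by the authors are not given in the sources used here. Probe sets were named through GEO's platform annotation: 34945 have 1 gene symbol, 932 several and 9160 none, beside 64 control probe sets. Gene IDs of 34741 matched RefSeq, and no symbol changed.

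Values were taken as log2(intensity + 16) with no further normalization, since array medians differed by 0.0669 on the log2 scale. Each of 18193 genes kept its brightest probe set. P4 minus Oil was fitted with limma 3.58.1 in R 4.3.3 (lmFit, and eBayes with an intensity trend), and p-values were adjusted over all genes by Benjamini-Hochberg, with calls at 0.05. Differences are given ± SE on this log2 scale, which understates changes of dim genes. The limma procedure was also run on simulated data, with changes given to 200 of the 18193 genes in each of 10 runs. It called 36.1% of log2 changes of 0.5, 81.3% of changes of 1 and 97.7% of changes of 2. On average 4.09% of its calls were false. Fewer genes changed there than were called in these data. Noise there was also drawn separately for each gene and array, while deviations of same-numbered arrays were correlated here, as given below. The shares may therefore differ here. A gene that did not pass may still have changed. The number of arrays limits the precision.

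The genes and lists were chosen with earlier results of these data known. Genes named with values were the sensors, every called gene, the least changed gene of each step, the 3 with the largest called change in each further list, the brightest marker of each cell type and those called. Others are given for the replicate block or as the remaining members of their complex.

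Deviations of same-numbered arrays correlated at 0.526, 0.126 and 0.643 over all genes for numbers 1, 2 and 3. Number 2 was thus weakly matched: P4 replicate 1 correlated more with Oil replicate 2, at 0.287. Over the 46 listed genes number 2 gave -0.203. The main fit used no pairing. The replicate block is given as an alternative, on the data's evidence alone. Promoters are those of RefSeq, GRCm38.p6.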

Additional observations from a re-analysis of the deposited data

How the results depend on the processing

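Over the 6 fits that leave out a single array, genes called higher ranged from 485 to 1075 and lower from 508 to 1227 over all genes, and from 10 to 19 higher over the 46 ER genes. By step the number higher ranged from 0 to 1 for sensors, 2 to 5 for translocation, 6 to 9 for chaperones, 0 to 1 for disulfide isomerases, 1 to 2 for glycosylation and 1 to 2 for ER-associated degradation. Further pathway genes ranged from 14 to 32 higher and 0 to 1 lower, and markers from 1 to 4 higher and 0 to 4 lower. Without both arrays numbered 2 the counts were 99 higher and 72 lower over all genes, 4 ER genes (4 chaperones and 0 in the sensors, translocation, glycosylation and degradation), 3 further pathway genes higher and 0 lower, and 0 markers lower.

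With the replicate block, 1690 genes were higher and 2111 lower, 23 ER genes were higher and 1, in ER-associated degradation, lower, 2 disulfide isomerases and 42 further pathway genes were higher, and 5 markers were higher and 9 lower. Scaling to the hybridisation controls, whose mean was -0.127 (log2, P4 minus Oil), moved the median of all genes by 0.127. It gave 1927 higher and 624 lower, 75.5% higher against 46.7% without it, with 24 ER genes, 2 disulfide isomerases, 2 genes of degradation, 48 further pathway genes and 2 markers higher, 0 pathway genes lower, and a median of 0.42 for the ER genes. With the mean of all probe sets that median was 0.22, with 0 sensors and 0 genes of degradation but 2 markers higher. Disulfide isomerases had 1 call with median centring, without the dimmest 30% or 50% of genes, and with robust eBayes. Glycosylation had 1 with quantile normalization, without cross-hybridising probe sets and without the trend. Pathway genes had 0 lower with median centring and without the trend.

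Signs turned only for genes near 0 among those named: Eif2ak3 (-0.0030 with mean probe sets), Xbp1 (-0.089 with quantile normalization, -0.091 without both arrays numbered 2, -0.13 without cross-hybridising probe sets, -0.052 to 0.054 over the single-array fits), Srp68 (-0.0044 with quantile normalization, -0.072 to 0.053), Sec62 (-0.037 to 0.082), Stt3b (0.10 with control scaling, 0.12 with mean probe sets, -0.12 to 0.028) and Herpud1 (0.042 with control scaling). Among markers they were Cxcl15 (-0.65 to 0.37), Acta2 (0.0031 with median centring, 0.12 with control scaling, 0.020 with mean probe sets, 0.21 without cross-hybridising probe sets, -0.058 to 0.013), Kit (-0.038 to 0.52) and Ptprc (-0.28 without both arrays numbered 2, -0.35 to 0.68). The cause was not tested. The file holds no background signal, so the limit for dim probe sets is unknown.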

Other observations

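The 46 ER genes had 119 probe sets, and 33 genes had more than 1. Of the 73 probe sets not used above, 19 were called higher after P4 and 0 lower when all 34945 named probe sets were fitted, of which 5.08% were called higher. The sign was opposite to that of the gene's brightest probe set for 12 of the 73. For 1 of them, a probe set of Sec62, this was so at an unadjusted p under 0.05 (-0.46, p 0.0337). None of the 4 probe sets of Xbp1 was called.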
